A study of Homo sapiens with 12 samples.

Results

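The 10 genes described here are markers that pathologists and developmental biologists use for ovarian tumours and for tissue of the Müllerian duct: PAX8, WT1, SOX17, EMX2 and MECOM, which encode transcription factors, MUC16 and MUC1, which encode membrane mucins, MSLN and FOLR1, which encode proteins anchored in the outer membrane by a lipid, and WFDC2, which encodes a secreted protein. They were chosen by gene symbol, with no measured value in the rule but with earlier results of these data known. All 10 were found among the 26475 gene symbols counted. RNA was sequenced from 2 cell lines, PA-1 and SK-OV3, each with 3 biological replicates given the solvent DMSO and 3 given BAY-850 at 5 µM for 48 h, so that there were 4 groups and 12 libraries. BAY-850 is a small molecule that keeps ATAD2, a bromodomain protein of chromatin, from binding acetylated histones, and the study asked which genes depend on ATAD2 in ovarian cancer cells. PA-1 is a line from an ovarian teratocarcinoma, a germ cell tumour, and SK-OV3 is a line from an ovarian adenocarcinoma, which is of epithelial type. The labels call both simply ovarian cancer cells. PA-1 was grown in DMEM and SK-OV3 in RPMI, both with fetal bovine serum, so that the medium and the line cannot be told apart in any comparison between them. Each line came from 1 tumour and stands for no other tumour.

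The Müllerian ducts are the paired tubes of the embryo that become the oviducts, the uterus and the upper vagina. Their epithelium needs a set of transcription factors, among them those encoded by PAX8, SOX17 and EMX2, and carcinomas of the serous type keep many of these factors switched on. The surface proteins of these tumours are better known from the clinic: the antigen of the CA125 blood test is part of the mucin MUC16, the HE4 test reads the WFDC2 protein, and mesothelin and the folate receptor alpha are targets of antibody drugs. Mesothelin binds MUC16, which can tether tumour cells to the lining of the abdomen. WT1 also marks that lining, the mesothelium, so a level of WT1 does not by itself name a cell type.

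Total counts per library ran from 34544505 to 51840233. Ribosomal RNA genes made up between 7.94% (SK-OV3 DMSO replicate 2) and 16.9% (PA-1 BAY-850 replicate 3) of a total. BAY-850 replicate 3 of SK-OV3 stood apart: it had the highest total but a count for only 15629 genes, against 17425 to 18414 in the other libraries. Results that rest on it are given with and without it below. Levels are given as CPM, counts scaled to a common library size by TMM factors. Markers that tell the lines apart were also read under DMSO. The pluripotency markers summed to between 1418 and 1626 CPM in PA-1 and to between 36.2 and 41.0 CPM in SK-OV3, where most of that sum was DNMT3B with a mean of 31.5 CPM. The 15 epithelial markers summed to between 1015 and 1071 CPM in PA-1 and to between 2452 and 2627 CPM in SK-OV3. Among those tested the keratin gene KRT7 differed most, with a mean of 440 CPM in SK-OV3 and 0.103 CPM in PA-1. The highest of the list in both lines was the keratin gene KRT8, at 532 CPM in PA-1 and 599 CPM in SK-OV3. Leukocyte markers summed to at most 40.6 CPM in any library, nearly all of it CD68. The cultures were sequenced in bulk, so that fewer cells holding a transcript and less transcript per cell cannot be told apart.

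Between the lines under DMSO, 6 of the 9 members that passed the filter on low counts were higher in SK-OV3 and 1, WT1, was higher in PA-1. Over all 16070 genes tested, 40.1% were called higher in SK-OV3 and 40.2% lower, by edgeR's quasi-likelihood test at a Benjamini-Hochberg adjusted p under 0.05. The libraries of the lines did not overlap for 8 of the 9 members, and for 82.3% of all genes tested. With so much of the transcriptome differing, a call says little by itself, and the sizes carry the description. PAX8, SOX17, MECOM and MUC16 were near 0 in PA-1 and passed this filter through SK-OV3 only. The direction of these members was therefore largely fixed by the filter. The plot of levels by library shows every value. EMX2 did not pass the filter in any comparison.

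**Figure D1:**
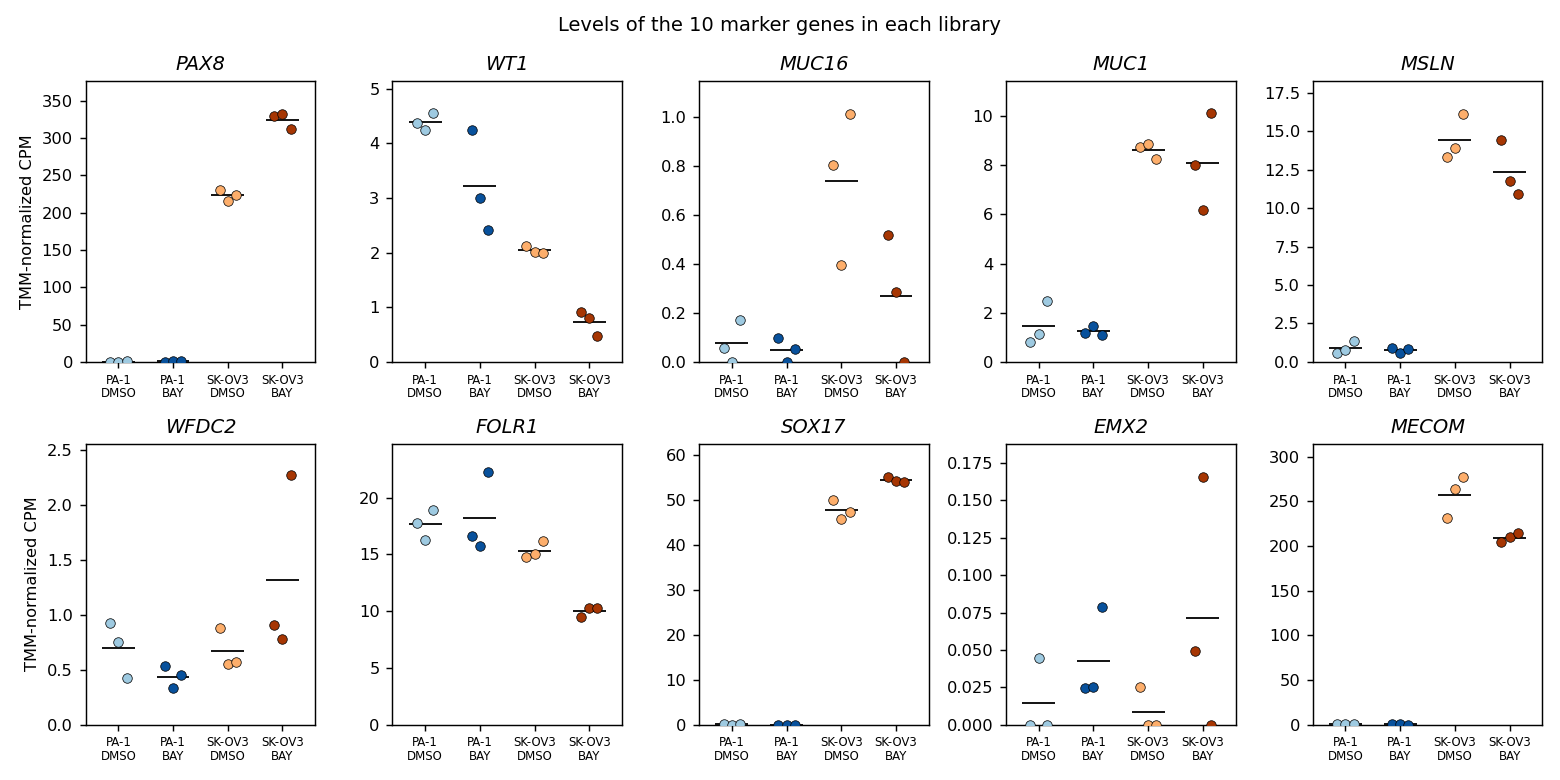
Levels of the 10 marker genes in each of 12 libraries, as TMM-normalized CPM on linear axes that start at 0 and differ between panels. Each point is 1 library and each bar the mean of 3. PAX8, SOX17 and MECOM were near 0 in PA-1 and between 45.7 and 332 CPM in SK-OV3, whereas FOLR1 was present in both lines.

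PAX8 encodes the paired-box factor of the Müllerian, thyroid and kidney epithelium (chr2:113215997-113278950, minus strand, GRCh38, GENCODE 29). It stood at 230, 215 and 224 CPM in the DMSO libraries of SK-OV3 and at 0.0868, 0.200 and 0.820 CPM in those of PA-1. The latter rest on 3, 9 and 29 counts. The log2 difference was 9.27 (SE 0.222, edgeR adjusted p = 9.51e-13). MECOM, a zinc finger factor whose locus is often amplified in ovarian carcinoma (chr3:169083499-169663618, minus strand), was as strongly split, with 231, 264 and 277 CPM in SK-OV3 and 0.607, 0.266 and 0.198 CPM in PA-1. Its log2 difference was 9.51 (SE 0.167, edgeR adjusted p = 6.55e-14). Both genes passed the filter through SK-OV3 only, so neither p-value bears on the direction.

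SOX17, a factor of endoderm, germ cells and Müllerian epithelium on chromosome 8, gave 1982, 1727 and 1825 counts in SK-OV3 and 1, 0 and 3 counts in PA-1. The ratio of the summed counts, scaled for library size, was 1370 with an exact 95% interval of 535 to 5030, which covers counting error only. In the BAY-850 libraries of PA-1 no SOX17 count was found in any of 3 libraries, which allows up to 0.0253 CPM over the group. These 3 factors had no overlap between the lines, and each was close to absent from the teratocarcinoma line.

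Of the surface proteins, MSLN, which encodes mesothelin (chr16:760762-768865, plus strand), stood at 13.3, 13.9 and 16.1 CPM in SK-OV3 and at 0.578, 0.798 and 1.39 CPM in PA-1, a log2 difference of 3.97 (SE 0.248, edgeR adjusted p = 9.76e-09). MUC1, a membrane mucin of most glandular epithelia (chr1:155185824-155192916, minus strand), stood at 8.73, 8.86 and 8.24 CPM against 0.810, 1.13 and 2.46 CPM, a log2 difference of 2.55 (SE 0.315, edgeR adjusted p = 7.54e-06). MUC16, at chr19:8848844-8981342 on the minus strand, was scarce in both lines, with 32, 15 and 39 counts in SK-OV3 and 2, 0 and 6 in PA-1. Its ratio of summed counts was 10.6, with an exact 95% interval of 5.17 to 25.4. All 3 were higher in every SK-OV3 library than in any PA-1 library.

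The other members did not follow that direction. WT1, the Wilms tumour zinc finger factor (chr11:32387775-32435630, minus strand), was the only member called higher in PA-1, with 4.37, 4.24 and 4.56 CPM there and 2.11, 2.01 and 1.995 CPM in SK-OV3. The log2 difference was -1.11 (SE 0.209, edgeR adjusted p = 3.23e-04). FOLR1, the folate receptor alpha gene (chr11:72189558-72196323, plus strand), was nearly level, at 14.7, 15.03 and 16.2 CPM in SK-OV3 and 17.8, 16.3 and 19.0 CPM in PA-1. The groups did not overlap, but the log2 difference of -0.21 (SE 0.1004) was not called, with an edgeR adjusted p of 0.0734.

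WFDC2 (chr20:45469706-45481532, plus strand) stood at 0.880, 0.556 and 0.570 CPM in SK-OV3 and at 0.925, 0.754 and 0.424 CPM in PA-1, with overlapping ranges and a log2 difference of -0.071 (SE 0.455, edgeR adjusted p = 0.891). EMX2, a homeobox factor of the urogenital tract (chr10:117542444-117549546, plus strand), had at most 7 counts in any of the 12 libraries. No level of EMX2 could be set apart from any other at this depth.

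Levels of different genes are comparable only per length, so CPM was divided by the kilobases covered by a gene's exons in GENCODE 29. That length merges all transcripts of a gene. It is 9103 bases for MECOM, 7400 for PAX8 and 2342 for SOX17, whose longest transcripts have 5732, 4152 and 2342 bases. For WT1 and WFDC2 it is 4113 and 1382 bases, against 3122 and 818. Which transcripts were made is not known, so an order between genes holds for this length only. On that scale the order in SK-OV3 under DMSO opened with PAX8 at 30.1 ± 0.984 (SD, n = 3) and MECOM at 28.3 ± 2.63 CPM per kb, whose libraries overlapped. SOX17 followed at 20.3 ± 0.896, FOLR1 at 9.30 ± 0.478, MSLN at 5.65 ± 0.584 and MUC1 at 1.83 ± 0.0692 CPM per kb, each apart from its neighbours. WT1 at 0.496 and WFDC2 at 0.484 CPM per kb overlapped, and MUC16 at 0.0168 and EMX2 at 0.00257 CPM per kb closed the order. In PA-1 under DMSO the order was another: FOLR1 led at 10.7 ± 0.816 CPM per kb and WT1 came next at 1.07 ± 0.0391. WFDC2 at 0.507, MSLN at 0.360 and MUC1 at 0.311 CPM per kb followed, of which each overlapped the next. PAX8 was at 0.0499 and MECOM at 0.0392 CPM per kb there, and from PAX8 down each member overlapped the next. The exons of MUC16 cover 43830 bases, the most of any member.

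**Figure D2:**
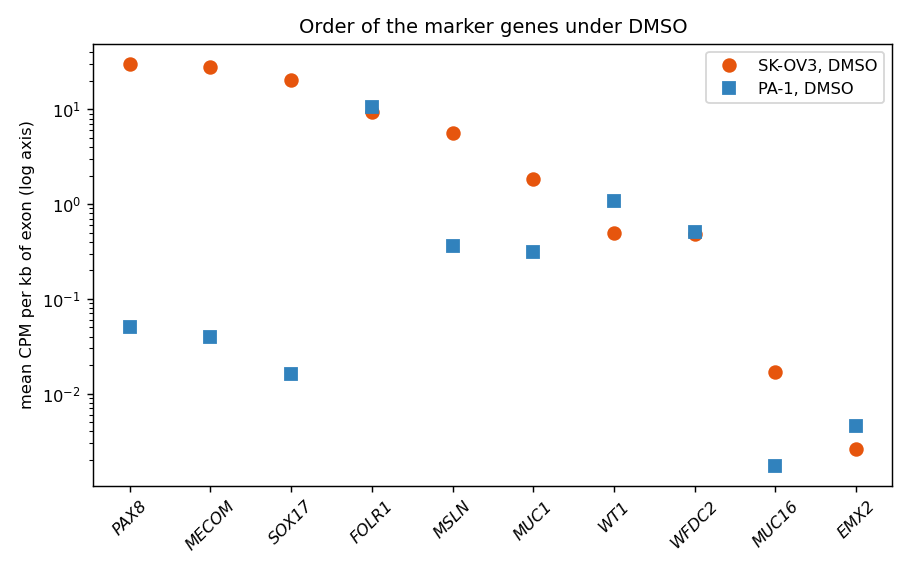
Mean CPM per kb of exon of the 10 marker genes under DMSO, on a log axis, ordered by their level in SK-OV3. Circles are means of 3 SK-OV3 libraries and squares of 3 PA-1 libraries. FOLR1 and WFDC2 nearly coincide, WT1 is higher in PA-1, EMX2 rests on at most 2 counts in any library, and PAX8, MECOM and SOX17 are furthest apart.

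BAY-850 was then compared with DMSO within each line, which is the comparison the study was built for. In SK-OV3, 9 members were tested and 5 were called: PAX8 and SOX17 were upregulated and WT1, FOLR1 and MECOM were downregulated. Over all 15348 genes tested, 10.8% were called higher and 9.56% lower. In the same 5 members the DMSO and BAY-850 libraries did not overlap, as in 38.8% of all genes tested. In PA-1, 7 members were tested and 0 were called by edgeR, by limma-voom or by DESeq2, which left the adjusted p of 5 of them undefined, and none had an unadjusted p under 0.05. There, 4.65% of 15212 genes were called higher, 2.48% were lower, and the libraries of 27.5% did not overlap, while those of every tested member did. When a trend with GC content was removed, the genes called in SK-OV3 split into 1991 higher and 1012 lower in place of 1662 and 1468. With scaling by library size only, those in PA-1 split into 235 and 231 in place of 707 and 378.

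PAX8 rose in SK-OV3 from 230, 215 and 224 CPM under DMSO to 329, 332 and 312 CPM under BAY-850, and the lowest treated library was above the highest control. The change was 1.47-fold (log2 fold change 0.55, SE 0.0477, edgeR adjusted p = 1.50e-05). In PA-1 it stood at 0.0868, 0.200 and 0.820 CPM under DMSO and 0.315, 0.788 and 0.763 CPM under BAY-850. These values overlap, and the log2 fold change of 0.76 (SE 0.668) was not called (edgeR adjusted p = 0.533). On the opposite strand PAX8 shares 685 exon bases with PAX8-AS1, a long noncoding RNA. PAX8-AS1 had means of 16.8 ± 2.04 and 13.2 ± 1.84 CPM in SK-OV3 under DMSO and BAY-850, with a log2 fold change of -0.34 (SE 0.133, edgeR adjusted p = 0.101). The libraries kept strand, but the setting used in counting is not given in the sources used here, so reads from the shared bases cannot be assigned to either gene with certainty.

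The 250 bases before a start of PAX8 and a start of WT1 are shown because these genes had the largest called changes in either direction in SK-OV3. They are RefSeq sequences of GRCh38.p14, written 5′ to 3′ on the strand of the gene, at chr2:113278922-113279171 and chr11:32435540-32435789, and both genes lie on the minus strand. Capitals mark matches, on either strand, to GGGCGG (the GC box), CCAAT and TATAAA.
PAX8: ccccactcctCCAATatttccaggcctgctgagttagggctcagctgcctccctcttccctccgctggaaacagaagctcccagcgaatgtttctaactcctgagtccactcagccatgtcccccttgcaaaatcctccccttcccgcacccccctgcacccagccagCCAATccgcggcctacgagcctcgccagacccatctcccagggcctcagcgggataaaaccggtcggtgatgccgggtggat
WT1: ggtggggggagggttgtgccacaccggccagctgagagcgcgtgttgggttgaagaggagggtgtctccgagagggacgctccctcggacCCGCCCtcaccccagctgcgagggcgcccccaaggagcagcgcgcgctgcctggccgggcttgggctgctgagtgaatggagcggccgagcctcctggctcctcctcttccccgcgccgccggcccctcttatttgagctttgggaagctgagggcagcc
The PAX8 window held 2 CCAAT matches and no GC box, and the WT1 window 1 GC box match, on the opposite strand. No TATAAA was found in either. Of 35116 RefSeq promoter windows of 250 bases, 42.6% held a GC box, 32.0% a CCAAT and 10.7% a TATAAA, so that these letters are common. CpG dinucleotides numbered 11 before PAX8 and 19 before WT1, where the median over all windows was 11. RefSeq lists other starts for WT1, and counts per gene do not tell which start was used. Of the 10 members, 7 had an entry among these windows.

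WT1 fell in SK-OV3 from 2.11, 2.01 and 1.995 CPM to 0.910, 0.805 and 0.465 CPM, which are 84, 76 and 77 counts against 37, 34 and 25. Every treated library was below every control. The log2 fold change was -1.48 (SE 0.411, edgeR adjusted p = 0.0257), and without BAY-850 replicate 3 it was -1.25 (edgeR adjusted p = 0.0143). The adjusted p lay between 0.0565 and 0.0986 without DMSO replicate 1, 2 or 3 or without BAY-850 replicate 2. In PA-1, WT1 stood at 4.37, 4.24 and 4.56 CPM under DMSO and 4.24, 3.00 and 2.42 CPM under BAY-850. The treated values reached from within the controls to well below them, and the log2 fold change of -0.44 (SE 0.211) was not called (edgeR adjusted p = 0.220). WT1 shares 113 exon bases with WT1-AS on the opposite strand, which had between 26 and 35 counts in each PA-1 library and a mean of 0.113 CPM in SK-OV3 under DMSO.

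FOLR1 brings folate into the cell by endocytosis. In SK-OV3 it fell from 14.7, 15.03 and 16.2 CPM under DMSO to 9.52, 10.3 and 10.3 CPM under BAY-850. The groups were well apart, with a log2 fold change of -0.60 (SE 0.111, edgeR adjusted p = 0.00302). In PA-1 it stood at 17.8, 16.3 and 19.0 CPM and at 16.7, 15.8 and 22.3 CPM, overlapping, with a log2 fold change of 0.048 (SE 0.123, edgeR adjusted p = 0.861).

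Whether a response differs between the lines was tested by an interaction term over all 12 libraries, in which 6.7% of 16830 genes were called with a higher and 7.77% with a lower response in SK-OV3. FOLR1 was the only member of 9 tested that was called. Its response was lower in SK-OV3 than in PA-1 by a log2 difference of -0.66 (SE 0.182, edgeR adjusted p = 0.0239). The call was lost, at adjusted p between 0.0517 and 0.0651, without PA-1 DMSO replicate 2, PA-1 BAY-850 replicate 3, SK-OV3 DMSO replicate 3 or SK-OV3 BAY-850 replicate 1, with log2 differences from -0.61 to -0.49. For WT1 the log2 difference was -1.05 (SE 0.415, edgeR adjusted p = 0.106), and for PAX8 it was -0.24 (SE 0.498, edgeR adjusted p = 0.812). SOX17 had a log2 difference of 3.81 (SE 1.39, edgeR adjusted p = 0.0869), for which PA-1 held 4 counts under DMSO and 0 under BAY-850. With 1 library left out, the lowest edgeR adjusted p was 0.0492 for PAX8 and 0.0368 for SOX17. Of the 9 members, 4 had an unadjusted edgeR p under 0.05. With all 12 libraries, the calls of PAX8, WT1, SOX17 and MECOM in SK-OV3 alone therefore do not show that PA-1 responded otherwise.

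MECOM and SOX17 changed less. MECOM fell in SK-OV3 from 231, 264 and 277 CPM to 204, 210 and 215 CPM, with all treated libraries below all controls and a log2 fold change of -0.28 (SE 0.0670, edgeR adjusted p = 0.0117). Without DMSO replicate 2 or DMSO replicate 3 it was -0.26 or -0.23 and no longer called, at edgeR adjusted p of 0.0661 and 0.0723. SOX17 stood at 49.8, 45.7 and 47.3 CPM under DMSO and 55.0, 54.2 and 53.8 CPM under BAY-850. Its log2 fold change of 0.20 (SE 0.0647) passed narrowly (edgeR adjusted p = 0.0458). Leaving out DMSO replicate 2, DMSO replicate 3, BAY-850 replicate 1 or BAY-850 replicate 2 gave edgeR adjusted p from 0.104 to 0.188. In PA-1, MECOM stood at 0.607, 0.266 and 0.198 CPM under DMSO and 0.412, 0.508 and 0.0789 CPM under BAY-850, with a log2 fold change of -0.079 (SE 0.669, edgeR adjusted p = 0.960).

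**Figure D3:**
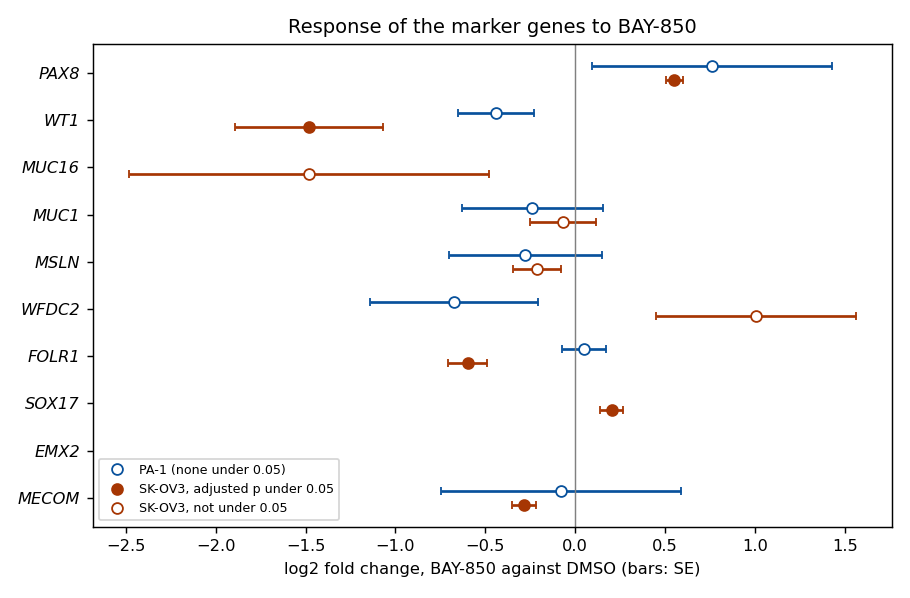
Log2 fold changes of BAY-850 against DMSO, with bars of 1 SE, for members tested in each line, PA-1 in blue and SK-OV3 in brown. Filled points had an adjusted p under 0.05, which 5 members had in SK-OV3 and 0 in PA-1; MUC16 and SOX17 were tested only in SK-OV3 and EMX2 in neither line.

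MUC1, MSLN and WFDC2 were not called in either line, and MUC16 was not called in SK-OV3 and could not be tested in PA-1. MUC1 stood at 8.73, 8.86 and 8.24 CPM under DMSO in SK-OV3 and at 8.02, 6.18 and 10.1 CPM under BAY-850, where the replicates spread on both sides of the controls. Its log2 fold change was -0.068 (SE 0.184, edgeR adjusted p = 0.835). MSLN stood at 13.3, 13.9 and 16.1 CPM and at 14.4, 11.8 and 10.9 CPM, a log2 fold change of -0.21 (SE 0.132, edgeR adjusted p = 0.299). Both had wide errors in PA-1, with log2 fold changes of -0.24 (SE 0.393) for MUC1 and -0.28 (SE 0.425) for MSLN.

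MUC16 had 32, 15 and 39 counts under DMSO in SK-OV3 and 21, 12 and 0 under BAY-850, and the groups overlapped. The log2 fold change was -1.48 (SE 1.00, edgeR adjusted p = 0.339), and without BAY-850 replicate 3, the library with 0 counts, it was -0.88 (edgeR adjusted p = 0.310). WFDC2 rested on the same library in the other direction, with 35, 21 and 22 counts under DMSO and 37, 33 and 122 under BAY-850. Its log2 fold change was 1.01 (SE 0.557, edgeR adjusted p = 0.237), and 0.34 without that library (edgeR adjusted p = 0.649). In PA-1 the log2 fold change of WFDC2 was -0.68 (SE 0.467, edgeR adjusted p = 0.414). Without that library the count of members called in SK-OV3 was again 5.

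Under BAY-850 the order per kb of exon in SK-OV3 changed near its top and lower down. The places of SOX17 and MECOM rest on the merged exon length, and the order per longest transcript was not read. PAX8 stood at 43.8 ± 1.46 CPM per kb (SD, n = 3), apart from SOX17 at 23.2 ± 0.265 and MECOM at 23.0 ± 0.591, which overlapped. FOLR1 at 6.08 ± 0.262 and MSLN at 4.84 ± 0.715 CPM per kb kept their places. WFDC2 at 0.956 ± 0.597 CPM per kb overlapped MUC1 through BAY-850 replicate 3 only, where it had 2.27 CPM against 0.910 and 0.782 CPM in replicates 1 and 2. It was apart from WT1 at 0.177 ± 0.0565 CPM per kb, with which it had overlapped under DMSO. In PA-1 under BAY-850, FOLR1 at 11.1 and WT1 at 0.783 CPM per kb again led.

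Lists of related genes were read beside the members, each by its counts and its median. The median log2 fold change over all genes tested was -0.0091 in SK-OV3 and -0.0019 in PA-1. Of all genes tested, 10.8% were called higher and 9.56% lower in SK-OV3, and 4.65% and 2.48% in PA-1. Beside these shares, 1 call in a list of a few genes says little. Of 12 genes of Müllerian development, 9 were tested in SK-OV3, of which 0 rose and 3 fell under BAY-850, with a median log2 fold change of -0.54. Those that fell were LHX1, a homeobox factor of the duct, at -0.81 (SE 0.0680), WNT7A, a signal of its epithelium, at -0.54 (SE 0.0718), and ESR1, the estrogen receptor alpha gene, at -0.61 (SE 0.104). PAX8 and SOX17, of the same tissue, rose. Under DMSO all 9 tested genes of this list were higher in SK-OV3 than in PA-1, with a median log2 difference of 7.04, where 40.1% of all genes tested were called higher. Of the 12 genes, 1 reached a mean of 1 CPM in PA-1 under DMSO and 6 did in SK-OV3. WNT7A had 0 counts in those PA-1 libraries and ESR1 had 2. Genes near 0 in PA-1 passed the filter through SK-OV3 only, so the direction and the median were largely fixed by the filter. For LHX1 the difference between the lines in the response was called too, at -1.004 (SE 0.144, edgeR adjusted p = 2.9e-04). In PA-1, 2 genes of this list were tested, and 0 were called by edgeR or had an unadjusted p under 0.05.

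Of 17 other markers of ovarian carcinoma, 10 were tested in SK-OV3, of which 5 rose and 1 fell, with a median of 0.022. By smallest p these were CP, the ceruloplasmin gene, at 1.23 (SE 0.0660), LCN2, which encodes an iron-siderophore binding protein, at 2.84 (SE 0.194), the cadherin gene CDH6, which fell, at -0.65 (SE 0.0699), and SLPI, a protease inhibitor gene, at 0.44 (SE 0.0863). SLPI is a relative of WFDC2 and was the only gene called of 2 tested in the WFDC family. Of the 15 epithelial markers, 13 were tested, of which 3 rose and 5 fell, with a median of -0.14. KRT19 at -0.67 (SE 0.0516), KRT8 at -0.51 (SE 0.0458) and EPCAM at -0.98 (SE 0.0895) fell, and CLDN4, a tight junction gene, rose at 0.80 (SE 0.0772). The markers of the epithelium therefore moved in both directions, as did the members called.

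Of 6 other mucin genes tested in SK-OV3, 0 rose and 1, MUC5AC, fell, at -1.39 (SE 0.185). Of 8 tested neighbours and relatives of MECOM, 0 were called in SK-OV3 by edgeR and 2 had an unadjusted p under 0.05. In PA-1, 2 of 7 fell, SEC62 at -0.25 (SE 0.0548) and SKIL at -0.20 (SE 0.0552), and of 10 epithelial markers tested there 2 rose, ELF3 at 0.80 (SE 0.116) and KRT19 at 0.42 (SE 0.109).

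Lists of other cell types were read in the same way, beside the 10.8% of all genes called higher and 9.56% called lower in SK-OV3. In SK-OV3, 1 of 5 mesothelial markers fell, UPK3B at -1.08 (SE 0.186), and 0 rose. The summed level of all 9 mesothelial markers was between 19.2 and 21.1 CPM under DMSO and between 13.9 and 16.7 CPM under BAY-850. Most of that fall was UPK3B itself, with means of 7.68 CPM under DMSO and 3.58 CPM under BAY-850, and no other tested mesothelial marker was called. The fibroblast markers also moved with treatment, 3 of 5 falling, and their sum was between 181 and 190 CPM under DMSO and between 89.2 and 118 CPM under BAY-850. Of these, COL1A1 at -0.77 (SE 0.0822) and LUM at -2.25 (SE 0.256) had the smallest p. Among the remaining lists, 1 of 3 pluripotency markers rose (DNMT3B at 1.18, SE 0.0681), as did 1 of 3 leukocyte markers (CD68 at 0.46, SE 0.0700) and 1 of 3 markers of yolk sac endoderm (GATA6 at 0.81, SE 0.0987), and 1 of 4 markers of ciliated tubal cells fell (CAPS at -0.85, SE 0.0892). The part of such changes in the values of WT1, FOLR1 and MECOM was not tested.

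To describe which genes varied most like the called members, Pearson's r was taken over the 12 libraries after each line's mean was subtracted, among 14092 genes. For PAX8 these were CXCL8 (r = 0.931), CP (r = 0.928) and CD248 (r = 0.909). For WT1 they were CDK2 (r = 0.968), ADAMTS6 (r = 0.967) and TMTC3 (r = 0.961), and for FOLR1 they were KCNE3 (r = 0.952), PBX3 (r = 0.947) and SRSF8 (r = 0.947). For SOX17 they were HLA-F (r = 0.991), ACSS1 (r = 0.964) and CLDN3 (r = 0.954), and for MECOM they were TMEM154 (r = 0.922), ZNF426 (r = 0.905) and HOXD9 (r = 0.865). In PA-1, SOX17 had 1, 0 and 3 counts under DMSO, CLDN3 had 1, 0 and 5, and both had 0 in every BAY-850 library. PAX8 and MECOM had at most 31 and 21 counts in any PA-1 library. The r of these 3 members therefore rests in part on scatter between very low counts in PA-1. The points share the treatment and the depth of their libraries, and the highest of many values is given, so that these are descriptions of 12 libraries only.

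Across 16 other ways of processing, the log2 fold change in SK-OV3 stayed between 0.53 and 0.58 for PAX8 and between -0.63 and -0.56 for FOLR1, and both were called in all 16. MECOM was called in 12, WT1 in 11 and SOX17 in 6 of the 16, with no change of sign.

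**Figure D4:**
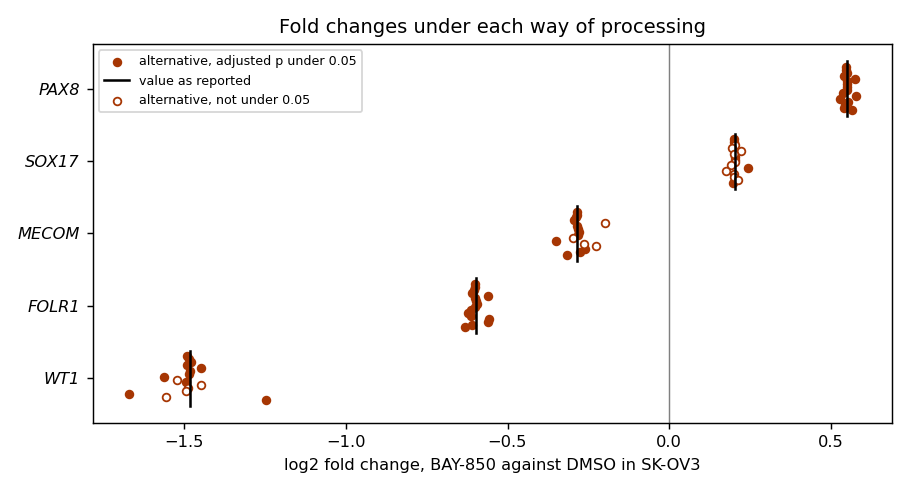
Log2 fold changes of the 5 members called in SK-OV3, each under 16 other ways of processing, among them leaving out 1 library at a time. Filled points had an adjusted p under 0.05, and the black line is the value as reported. PAX8 and FOLR1 were called in 16 of 16, SOX17 in 6.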

How the data were processed

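Poly(A)-selected or ribosomal RNA-depleted RNA (the labels give both) of 12 libraries was sequenced. Expected counts for each gene symbol were deposited by the authors, estimated with RSEM 1.2.15 and, per the submitters' processing notes, Bowtie2 2.1.0 and hg38. The annotation is not given in the sources used here. RSEM divides reads that fit several genes.

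Here the expected counts were rounded, filtered by edgeR 4.0.16 (filterByExpr) and scaled by TMM under R 4.3.3. Groups were compared by edgeR's quasi-likelihood test, adjusted by Benjamini-Hochberg over all genes tested. The SE is the log2 fold change divided by the root of F. The scripts were tested on simulated data. Exons and overlaps come from GENCODE 29, matched by symbol for 23900 genes. Alternatives used DESeq2 1.42.0, limma 3.58.1 (voom), other scalings and filters, a GC correction, a replicate block, all libraries in one fit, and leaving out each library.

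The members and gene lists were chosen with earlier results of these data known. All members are named. Of each list at most 4 called genes are named, those with the smallest p, and of the most similar genes 3 per called member. The replicates are biological per the labels. Intervals cover counting error only. The result for 1 of the gene lists is not reported here.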

Additional observations from a re-analysis of the deposited data

Results flagged for a closer look

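The response of FOLR1 to BAY-850 differed between the lines by the interaction term, with a log2 difference of -0.66 (SE 0.182, edgeR adjusted p = 0.0239, n = 3 per group). FOLR1 was lower in 3 of 3 treated SK-OV3 libraries than in every control, whereas in PA-1 the treated and control libraries overlapped. Groups of 3 libraries were not searched for single outlying values.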

How the results depend on the processing

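The replicate numbers did not pair the libraries: deviations of same-numbered libraries correlated between -0.028 and 0.0042. With the number as a replicate block, 3 members were called in SK-OV3 instead of 5, WT1 (edgeR adjusted p = 0.0559) and SOX17 (0.0757) being lost, and the counts of the other comparisons were 0, 7 and 1 as before. Removing a GC trend also gave 3 members in SK-OV3, and 0 in the interaction, where FOLR1 had an edgeR adjusted p of 0.0777. One fit of all 12 libraries gave 3. A minimum of 10 counts in every library left 5 members to test between the lines, of which 3 were called. Leaving out 1 library gave 2 to 5 members in SK-OV3 (2 without DMSO replicate 2 or 3, 3 without BAY-850 replicate 2), 0 to 2 in the interaction, 7 to 8 between the lines and 0 in PA-1. In the interaction it was 0 without PA-1 BAY-850 replicate 3, SK-OV3 DMSO replicate 3 or SK-OV3 BAY-850 replicate 1, and 2 without PA-1 DMSO replicate 3. The causes were not tested.

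Signs turned only for values that were not called. Without the GC trend FOLR1 in PA-1 was -0.022, and with limma-voom the interactions of MUC1 and MSLN were -0.0044 and -0.037. With 1 library left out, log2 values in PA-1 ran from -0.12 to 0.14 for FOLR1, -0.51 to 0.51 for MECOM, -0.52 to 0.13 for MSLN and -0.52 to 0.35 for MUC1. In SK-OV3 they ran from -0.28 to 0.099 for MUC1, between the lines from -0.32 to 0.17 for WFDC2, and in the interaction from -1.47 to 0.16 for PAX8, -0.42 to 0.43 for MUC1, -0.34 to 0.28 for MSLN and -0.81 to 0.16 for MECOM. Of 578 values of members under the alternatives, 527 kept their direction and side of the threshold, 24 lost and 4 gained a call and 23 turned.

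Counts over all genes moved by more than 1.5 times in PA-1, from 707 higher and 378 lower to 235 and 231 with library size only, 390 and 166 without the GC trend and 469 and 214 in one fit of all 12 libraries. They were 357 and 132 without DMSO replicate 1, 275 and 65 without DMSO replicate 2, 495 and 237 without BAY-850 replicate 1 and 273 and 71 without BAY-850 replicate 2. No filter on low counts gave 1038 and 588 there, and DESeq2 958 and 633. In SK-OV3, where the counts were 1662 and 1468, they were 993 and 788 without DMSO replicate 2 and 1124 and 859 without DMSO replicate 3. Splits of the interaction were 1501 and 878 without the GC trend and 1062 and 773 with library size only, against 1128 and 1307. At this depth EMX2, and SOX17 and MUC16 in PA-1, could not be tested.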
